A study of Homo sapiens with 12 samples.

Results

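The proton pump that acidifies lysosomes, the proteases that work in that acid and the major proteins of the lysosomal membrane were followed across 12 RNA-seq libraries of AC16 cells. Members were the rows of the count table whose symbols name a V0 or V1 pump subunit (ATP6V0 or ATP6V1), a pump accessory protein (ATP6AP1, ATP6AP2), a cathepsin with a single-letter name, or LAMP1 and LAMP2. They came to 40 of the 17197 gene symbols. Of these, 38 passed the filter on low counts and were tested among 13171 genes. The 2 left out were ATP6V1G3 and CTSE, and ATP6V1FNB matched the symbols only as a gene neighbouring ATP6V1F, not as a pump subunit.

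AC16 is an established human line made by fusing adult ventricular heart cells with transformed fibroblasts. Cells in serum-free medium received either an siRNA against EP300, a histone acetyltransferase and transcriptional coactivator, or a negative control siRNA. The 4 groups of 3 libraries were siEP300 and siNC, which received no peroxide, and siEP300.H2O2 and siNC.H2O2, which were exposed to hydrogen peroxide 12 h after transfection for 1 h. The labels give its concentration as 200 mM, a unit that could not be checked here; RNA was taken 48 h after fresh complete medium. All groups share the transfection reagent and the serum-free step, the labels describe no separate cultures, and p-values therefore measure the spread between these libraries, which may be technical. In this bulk RNA, fewer cells expressing a gene and less of its RNA per cell cannot be told apart.

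The V-ATPase is a rotary proton pump. Its cytosolic V1 sector burns ATP with alternating A and B subunits, peripheral stalks of E and G subunits hold it in place, C and H subunits control its assembly and activity, and a central rotor with D and F subunits turns the c-ring of the membrane V0 sector, past which subunit a lets protons through. Several subunits have alternative genes, and which a isoform is used is known to affect where the pump sits. The low pH it makes lets cathepsins mature and cut proteins, while heavily glycosylated LAMP proteins line the membrane and protect it. TFEB and TFE3 are transcription factors known to raise many of these genes by binding a sequence built around the E-box CACGTG.

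Promoter sequences of 5 members are printed first to show this E-box, the core of the element that TFEB and TFE3 bind, in genes that rose and in genes that fell. RefSeq sequence on GRCh38.p14, from 250 bases before to 50 bases after the annotated start, was matched for 27 of the 40 members, and not for ATP6V0E1, ATP6V1A, ATP6V1B2, ATP6V1C1, ATP6V1E2, ATP6V1FNB, ATP6V1H, CTSB, CTSK, CTSO, CTSS, CTSW and LAMP2. In the lines that follow, read 5′ to 3′ on the gene's strand, capitals mark each CACGTG. LAMP1 lies at chr13:113296989-113297288 on the plus strand, ATP6V1G1 at chr9:114587519-114587818 on the plus strand and ATP6V0D1 at chr16:67481108-67481407 on the minus strand, and these rose with EP300 siRNA. ATP6V0E2 at chr7:149872718-149873017 on the plus strand and CTSF at chr11:66568557-66568856 on the minus strand fell.
LAMP1: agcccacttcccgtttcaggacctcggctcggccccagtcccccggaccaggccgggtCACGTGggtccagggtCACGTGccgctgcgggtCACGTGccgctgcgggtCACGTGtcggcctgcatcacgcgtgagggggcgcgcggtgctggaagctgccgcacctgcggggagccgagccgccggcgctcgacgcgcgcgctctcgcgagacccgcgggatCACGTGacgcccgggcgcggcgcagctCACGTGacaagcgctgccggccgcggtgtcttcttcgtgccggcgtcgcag
ATP6V1G1: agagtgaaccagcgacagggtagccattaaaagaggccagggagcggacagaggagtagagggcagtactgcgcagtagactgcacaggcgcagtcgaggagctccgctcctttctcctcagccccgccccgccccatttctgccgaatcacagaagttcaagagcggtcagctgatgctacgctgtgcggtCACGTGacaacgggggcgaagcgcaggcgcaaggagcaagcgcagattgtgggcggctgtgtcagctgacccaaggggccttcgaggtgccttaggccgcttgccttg
ATP6V0D1: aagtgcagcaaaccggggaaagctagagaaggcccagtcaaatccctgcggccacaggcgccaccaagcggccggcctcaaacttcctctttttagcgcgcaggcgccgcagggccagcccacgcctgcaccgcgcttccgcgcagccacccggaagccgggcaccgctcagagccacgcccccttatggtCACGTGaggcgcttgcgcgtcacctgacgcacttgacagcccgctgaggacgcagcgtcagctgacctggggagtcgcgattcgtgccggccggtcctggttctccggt
ATP6V0E2: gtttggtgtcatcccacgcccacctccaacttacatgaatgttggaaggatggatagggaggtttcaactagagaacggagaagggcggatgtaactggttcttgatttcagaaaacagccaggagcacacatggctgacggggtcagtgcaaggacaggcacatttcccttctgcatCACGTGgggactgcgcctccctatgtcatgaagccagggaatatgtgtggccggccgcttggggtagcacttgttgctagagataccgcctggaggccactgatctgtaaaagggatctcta
CTSF: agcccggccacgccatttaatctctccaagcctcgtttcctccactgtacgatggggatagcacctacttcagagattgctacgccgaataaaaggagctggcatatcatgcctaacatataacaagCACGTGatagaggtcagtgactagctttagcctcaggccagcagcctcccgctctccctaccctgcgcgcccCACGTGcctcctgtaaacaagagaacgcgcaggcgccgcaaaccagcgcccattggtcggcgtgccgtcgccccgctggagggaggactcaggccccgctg

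The E-box, which reads the same on both strands, was found in 8 of 27 member promoters (29.6%), against 10.03% of the 10664 tested genes with a promoter of the same length. The 8 members were LAMP1, ATP6V1G1, ATP6V0D1, ATP6V0B, ATP6V0E2, CTSA, CTSD and CTSF. LAMP1 held 6 copies, and it was the 1 tested gene with 5 or more. Its copies sit at 192, 176, 159, 142, 28 and 1 bases before the start, where each distance is that of the first base. The longer palindrome of the CLEAR element, the E-box with GT before it and AC after it, occurred in ATP6V1G1 among the members and in 0.7502% of tested genes. TGACNNNGC, the core of the antioxidant response element searched on both strands, occurred in 11 of 27 members (40.7%), against 14.84% of tested genes. The CCAAT box occurred in 11 of 27 (40.7%) against 36.57%, whereas TGACTCA (AP-1) and TGATGCAA (an ATF4 element) were in 0 of 27 against 3.029% and 0.5158%. These are matches of letters in a window and show neither binding nor its absence.

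**Figure D1:**
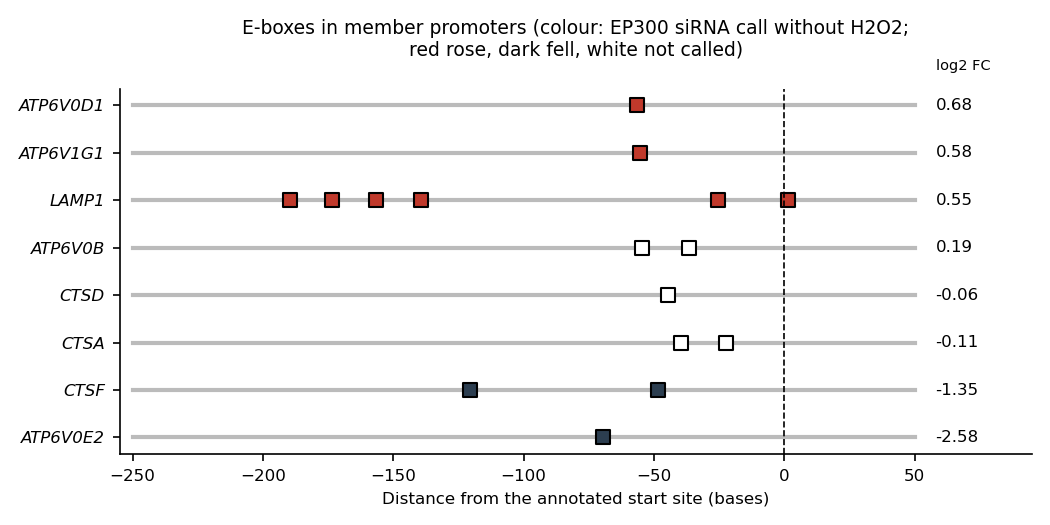
Positions of E-boxes (squares) in the 8 member promoters that hold one, in bases from the annotated start site (dashed line), ordered by the log2 fold change of siEP300 over siNC printed at the right. Genes with an E-box include LAMP1 with 6 copies and a rise of 0.55, and ATP6V0E2 with 1 copy and a change of -2.58.

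Before any comparison, the siRNA target was examined in each library. EP300 stood at 36.3, 36.8 and 36.7 CPM (each count scaled to its library total after TMM) in siEP300 libraries, against 101, 69.1 and 80.1 CPM in siNC libraries, and at 30.1, 26.9 and 26.5 CPM in siEP300.H2O2 libraries, against 59.9, 80.4 and 89.9 CPM in siNC.H2O2 libraries. The fitted level was 43.9% of siNC and, with peroxide, 36.3% of siNC.H2O2, so the knockdown was partial. One treatment field names MLF1 as the target in place of EP300; MLF1 was at 86.1% and 82.0% of control in the same comparisons. Library totals ran from 16081437 to 19033679 estimated counts. Differences within groups lay largely along 1 axis, which held 55.0% of the within-group variance over 9756 genes. Its gene weights had a rank correlation of 0.70 with transcript length and -0.48 with GC content, and siNC library 1 (score 12.5) and siNC.H2O2 library 7 (score -10.8) were the outermost. Of 16 cardiomyocyte markers in the table, 12 stayed below 1 CPM in every library, and TNNT2, MYH6, MYH7 and MYL2 among them reached at most 3 counts. TNNC1 reached 1.41 CPM, TTN 3.07 to 7.74 CPM, GATA4 7.31 to 14.04 CPM and NPPB 35.3 to 62.4 CPM. Of the 10 fibroblast markers, COL1A1 was the highest at 3036 to 4914 CPM. PDGFRA was the lowest at 4.69 to 15.3 CPM, and DCN stood at 8.35 to 94.3 CPM.

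In siNC libraries the members spanned a wide range per length. By FPKM, fragments scaled to gene length and library total, 11 of 40 members were at or above 100 and 6 were below 1. CTSA, a carboxypeptidase that also stabilises partner enzymes, led with 361 ± 22.9 FPKM (SD, n = 3), and its lowest siNC library was above the highest of any other member. Rotor subunit ATP6V1F (196 ± 4.38 FPKM), stalk subunit ATP6V1E1 (185 ± 13.1), ring subunit ATP6V0C (169 ± 9.57), CTSZ (153 ± 14.9) and ATP6V0B (144 ± 10.3) followed, and the ranges of neighbours in that order overlapped. Isoforms typical of specialised tissues lay at the bottom, with ATP6V1B1 at 0.827 ± 0.0404 FPKM, ATP6V0A4 at 0.587 ± 0.0907 FPKM and CTSW at 0.397 ± 0.146 FPKM. The aspartic protease gene CTSE had 0 to 2 estimated counts in every library. ATP6V1G3, a kidney isoform of the G stalk, had summed counts of 7 in siEP300 and 15 in siNC, and of 0 in siEP300.H2O2 and 11 in siNC.H2O2, too few for a test.

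EP300 siRNA was followed by rises and falls among the members, at shares near those of all genes. Against siNC, 14 members rose and 11 fell, 25 of 38 in all; 61.5% of all tested genes were called in this comparison, 30.1% higher and 31.4% lower. Among V1 subunits 6 rose and 3 fell of 12, among V0 subunits 3 rose and 1 fell of 8, both LAMP genes rose, and among cathepsins 2 rose and 7 fell of 13. With peroxide in both arms, 15 members rose and 12 fell, beside 59.0% of all tested genes (28.4% higher, 30.6% lower), and the counts were 6 and 3 for V1, 4 and 1 for V0, 2 and 0 for LAMP, and 2 and 8 for cathepsins. The median log2 fold change was 0.14 for V1, 0.19 for V0 and -0.26 for cathepsins without peroxide, with -0.00424 over all tested genes, and 0.17, 0.20 and -0.24 with peroxide, with -0.02 over all tested genes. In both comparisons 13 members rose and 10 fell, 9 were called in neither, 2 without peroxide only, 4 with peroxide only, and 0 in opposite directions. The matching joint shares of all tested genes were not taken, so these counts show nothing particular to the members. Calls are at an adjusted p under 0.05 in edgeR's quasi-likelihood test with Benjamini-Hochberg adjustment over all tested genes, the test behind every adjusted p here. Offsets for transcript length and GC content changed the split to 21 higher and 9 lower without peroxide and 19 higher and 10 lower with it. The median over all tested genes was then 0.038 and 0.041, and that of the members 0.17 and 0.12. The shares of all tested genes given above are from the fit without offsets. With those offsets V0 gave 6 rises and 1 fall in each arm (medians 0.51 and 0.46), V1 gave 6 and 2 without peroxide and 6 and 3 with it (0.14 and 0.15), and cathepsins gave 5 and 6 without peroxide and 3 and 6 with it (-0.12 and -0.0051). The cathepsin counts therefore depend on this correction, and no test compared pump genes with cathepsins. Of the members counted, CTSW passed the filter through siNC.H2O2 alone and ATP6V1B1 through siNC and siNC.H2O2 alone, so their falls with EP300 siRNA support nothing about the set.

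**Figure D2:**
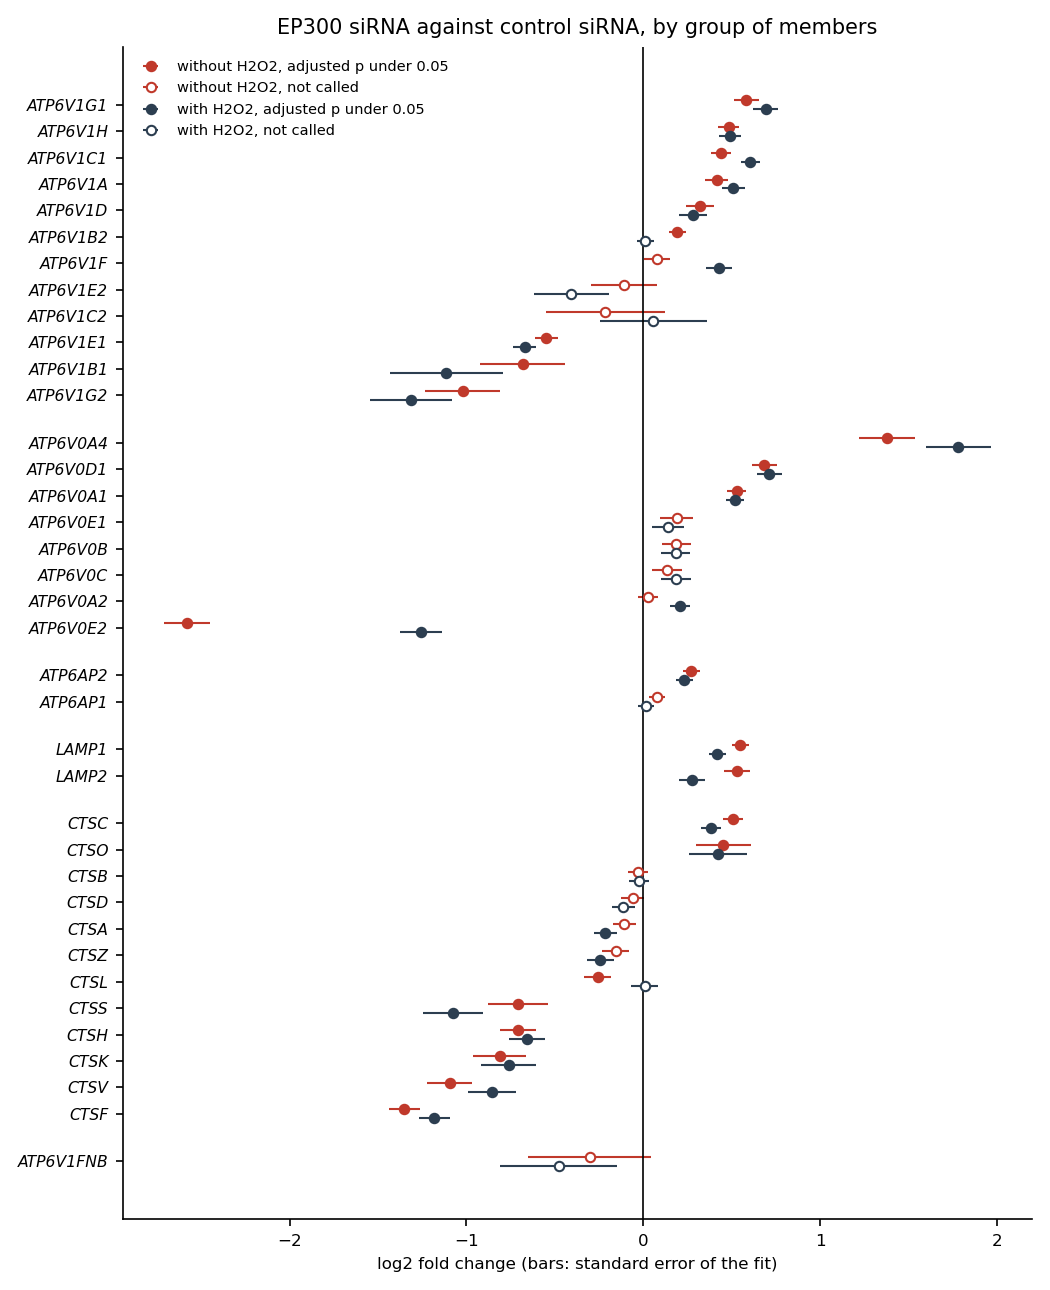
Log2 fold change (points) with standard error (bars) of EP300 siRNA over control siRNA for 37 tested members, without H2O2 (red) and with H2O2 (dark), grouped as V1, V0, accessory, LAMP, cathepsin and the neighbour gene; filled points passed the test and CTSW is left out because its counts are near 0. ATP6V0A4 lies farthest right at 1.38 and 1.78, ATP6V0E2 farthest left at -2.58 without peroxide.

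Within the V1 sector, the clearest rise was in the stalk subunit ATP6V1G1. It measured 123, 125 and 118 CPM in siEP300 libraries, against 75.1, 91.5 and 77.7 CPM in siNC libraries (log2 fold change 0.58 ± 0.07 SE, adjusted p = 6.51e-06). In the peroxide arm the levels were 139, 152 and 135 CPM in siEP300.H2O2, against 90.6, 88.1 and 84.7 CPM in siNC.H2O2 (log2 fold change 0.69 ± 0.07 SE, adjusted p = 1.17e-06). Each library with EP300 siRNA was above each of its controls. The annotation lists 5 pseudogenes named after this gene, so reads could be shared with them.

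Subunit C, which joins V1 to V0 when the pump assembles, rose through ATP6V1C1. Its level was 168, 172 and 177 CPM in siEP300, against 135, 123 and 123 CPM in siNC (log2 fold change 0.44 ± 0.05 SE, adjusted p = 6.57e-06). In the peroxide arm it was 216, 211 and 198 CPM in siEP300.H2O2, against 134, 139 and 138 CPM in siNC.H2O2 (log2 fold change 0.61 ± 0.05 SE, adjusted p = 2.55e-07). The groups did not overlap in either arm, and length and GC offsets left 0.28 without peroxide. Its scarce alternative ATP6V1C2 was not called (-0.21 ± 0.34 without peroxide and 0.06 ± 0.30 with it, log2 with SE). ATP6V1A, the catalytic subunit that binds ATP, had 134, 131 and 129.9 CPM in siEP300, against 104, 95.6 and 96.6 CPM in siNC (log2 fold change 0.41 ± 0.07 SE, adjusted p = 6.83e-05). It had 149.5, 136 and 138 CPM in siEP300.H2O2, against 90.2, 99.9 and 108 CPM in siNC.H2O2 (log2 fold change 0.51 ± 0.07 SE, adjusted p = 1.01e-05). Here too all libraries with EP300 siRNA lay above their controls. ATP6V1H, which restrains ATP use by free V1, and the rotor subunit ATP6V1D also rose in both arms, by log2 fold changes of 0.48 and 0.49 for ATP6V1H and 0.32 and 0.28 for ATP6V1D.

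One abundant V1 subunit went the other way. ATP6V1E1, the widely expressed E subunit of the stalk, measured 126, 127 and 123 CPM in siEP300, against 172, 199.6 and 179 CPM in siNC (log2 fold change -0.55 ± 0.07 SE, adjusted p = 4.90e-06). After peroxide its levels were 137, 141 and 148 CPM in siEP300.H2O2, against 241, 228 and 209 CPM in siNC.H2O2 (log2 fold change -0.67 ± 0.07 SE, adjusted p = 6.30e-07). All 6 libraries with EP300 siRNA were below all 6 controls, while the G subunit that pairs with it in the stalk was above. Its minor alternative ATP6V1E2 was not called in either arm (log2 fold changes of -0.11 ± 0.19 and -0.41 ± 0.21 SE), and 1 pseudogene carries the ATP6V1E1 name.

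Among scarce V1 isoforms, ATP6V1G2 and ATP6V1B1 were called lower, while ATP6V1C2 and ATP6V1E2 were not called and ATP6V1G3 was not tested. ATP6V1G2, a neuronal G isoform, stood at 1.15, 1.25 and 0.818 CPM in siEP300, against 2.06, 2.40 and 2.07 CPM in siNC (log2 fold change -1.02 ± 0.21 SE, adjusted p = 7.45e-04), and at 0.773, 0.857 and 0.772 CPM in siEP300.H2O2, against 1.67, 1.82 and 2.49 CPM in siNC.H2O2 (log2 fold change -1.31 ± 0.23 SE, adjusted p = 1.89e-04). No library with EP300 siRNA reached its controls; the gene overlaps a readthrough transcript with DDX39B, and how shared reads were counted is not given in the sources used here. ATP6V1B1, the B isoform of acid-secreting epithelia, had 0.874, 0.510 and 1.09 CPM in siEP300, against 1.27, 1.46 and 1.27 CPM in siNC (log2 fold change -0.68 ± 0.24 SE, adjusted p = 0.0237). With peroxide it had 0.386, 0.343 and 0.386 CPM in siEP300.H2O2, against 0.862, 0.817 and 0.759 CPM in siNC.H2O2 (log2 fold change -1.11 ± 0.32 SE, adjusted p = 0.00789). These are 6 to 28 counts a library, and the call without peroxide ended when siNC library 2 (adjusted p = 0.076) or siEP300 library 5 (adjusted p = 0.18) was left out, in DESeq2 (adjusted p = 0.11) and with length and GC offsets (adjusted p = 0.22). The gene passed the count filter through siNC and siNC.H2O2 alone, so its falls with EP300 siRNA are a description. ATP6V1B1 overlaps VAX2 on the same strand over 29506 bases, and VAX2 also fell, by 0.69 and 0.55 on the log2 scale. The abundant B isoform ATP6V1B2 rose without peroxide by 0.19 ± 0.05 and was at 0.01 ± 0.05 (log2, SE) with it; length and GC offsets left 0.01 without peroxide.

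In the membrane sector, ATP6V0D1, the widely expressed d subunit that couples the c-ring to the rotor, rose most among abundant genes. It measured 135, 132 and 126 CPM in siEP300, against 79.5, 83.9 and 81.6 CPM in siNC (log2 fold change 0.68 ± 0.07 SE, adjusted p = 9.92e-07). Under peroxide the gene measured 145, 158 and 143 CPM in siEP300.H2O2, against 95.4, 96.6 and 79.9 CPM in siNC.H2O2 (log2 fold change 0.71 ± 0.07 SE, adjusted p = 6.47e-07). The lowest library with EP300 siRNA was above the highest control. The c-ring subunits ATP6V0B and ATP6V0C were not called, with log2 fold changes between 0.13 and 0.19 in either arm. With length and GC offsets both were called higher in each arm. Those log2 fold changes were 0.42 and 0.59 without peroxide, and 0.38 and 0.54 with it. The annotation names 4 pseudogenes after ATP6V0C, and 2 protein-coding genes overlap it on the same strand.

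Subunit a has 4 isoforms, of which 3 are members and the third, TCIRG1 (known for osteoclasts), falls outside the symbols. ATP6V0A1 measured 71.3, 72.5 and 72.3 CPM in siEP300, against 51.8, 47.7 and 50.3 CPM in siNC (log2 fold change 0.53 ± 0.05 SE, adjusted p = 7.75e-07). In peroxide-treated cells it measured 90.7, 86.0 and 88.0 CPM in siEP300.H2O2, against 60.8, 63.5 and 60.6 CPM in siNC.H2O2 (log2 fold change 0.52 ± 0.05 SE, adjusted p = 8.59e-07). The 4 groups of this gene did not overlap. ATP6V0A4, the kidney and inner-ear isoform, was low and rose, with 3.88, 4.25 and 4.36 CPM in siEP300, against 1.32, 1.82 and 1.64 CPM in siNC (log2 fold change 1.38 ± 0.16 SE, adjusted p = 3.39e-06). With peroxide it had 3.81, 3.20 and 3.58 CPM in siEP300.H2O2, against 0.862, 1.19 and 1.03 CPM in siNC.H2O2 (log2 fold change 1.78 ± 0.18 SE, adjusted p = 9.07e-07). These levels rest on 56 to 80 counts a library with EP300 siRNA and 16 to 35 with control siRNA. FOXI1 and SLC4A1, markers of the intercalated cells that use ATP6V0A4 and ATP6V1B1, had at most 1 and 2 counts in any library, and SLC26A4, also of those cells, lay between 0.269 and 1.42 CPM.

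By counts, the remaining a isoforms changed less with the siRNA than ATP6V0A1 and ATP6V0A4. ATP6V0A2 was the member nearest to no change without peroxide, with 38.3, 39.5 and 37.3 CPM in siEP300, against 38.4, 37.7 and 36.8 CPM in siNC (log2 fold change 0.03 ± 0.06 SE, adjusted p = 0.704). With peroxide it had 40.5, 41.2 and 40.1 CPM in siEP300.H2O2, against 35.4, 33.4 and 36.6 CPM in siNC.H2O2 (log2 fold change 0.21 ± 0.06 SE, adjusted p = 0.00571). Its groups overlapped in CPM without peroxide and separated with it. In FPKM, ATP6V0A2 was higher without peroxide too, at 10.07 to 10.78 in siEP300, against 7.84 to 9.16 in siNC. TCIRG1 had log2 fold changes of -0.05 ± 0.07 and -0.06 ± 0.08 (SE), neither called, and length and GC offsets turned these to 0.45 and 0.36. By FPKM, TCIRG1 made up 47.0% ± 1.12 of the summed a isoforms in siEP300, against 56.7% ± 2.16 in siNC, and 38.0% ± 2.25 in siEP300.H2O2, against 47.4% ± 1.73 in siNC.H2O2 (SD, n = 3). ATP6V0A1 made up 32.9% ± 0.381 in siEP300, against 26.5% ± 2.27 in siNC, and 41.4% ± 1.66 in siEP300.H2O2, against 34.5% ± 2.02 in siNC.H2O2. The shares of both genes did not overlap between EP300 siRNA and control siRNA in either arm, and no test was run on shares. They rest on FPKM without length and GC offsets. With those offsets ATP6V0A1 had log2 fold changes of 0.66 and 0.67, beside the 0.45 and 0.36 of TCIRG1. Shares with offsets were not computed, so the size of this shift may depend on them.

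The largest change among pump genes without peroxide was a fall of ATP6V0E2, 1 of 2 genes for the small e subunit. It measured 4.75, 3.51 and 3.76 CPM in siEP300, against 21.3, 24.3 and 26.5 CPM in siNC (log2 fold change -2.58 ± 0.13 SE, adjusted p = 5.17e-10). Peroxide-treated libraries had 6.68, 8.12 and 7.77 CPM in siEP300.H2O2, against 19.02, 18.9 and 16.1 CPM in siNC.H2O2 (log2 fold change -1.26 ± 0.12 SE, adjusted p = 4.54e-07). The 4 groups were fully apart, in the order siEP300, siEP300.H2O2, siNC.H2O2 and siNC from low to high. Peroxide lowered the gene with control siRNA (log2 fold change -0.42 ± 0.11 SE, adjusted p = 0.00641) and raised it with EP300 siRNA (log2 fold change 0.90 ± 0.15 SE, adjusted p = 2.93e-04). The difference between these effects, the interaction, was 1.32 ± 0.18 (log2, SE, adjusted p = 0.00125), and it was the 1 interaction called among members, where 3.33% of all tested genes were called (1.12% higher, 2.21% lower). At an unadjusted p under 0.05 there were 5 members higher and 2 lower, but the share of all tested genes there was not taken. Its partner ATP6V0E1, not called in either arm, carried most of the subunit, so that the ATP6V0E2 share of summed FPKM was 2.04% ± 0.367 in siEP300, against 12.6% ± 1.07 in siNC, and 3.31% ± 0.434 in siEP300.H2O2, against 8.42% ± 0.587 in siNC.H2O2 (SD, n = 3). An antisense gene overlaps ATP6V0E2 over 7643 bases, and without a stated strand setting reads from the pair cannot be told apart.

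**Figure D3:**
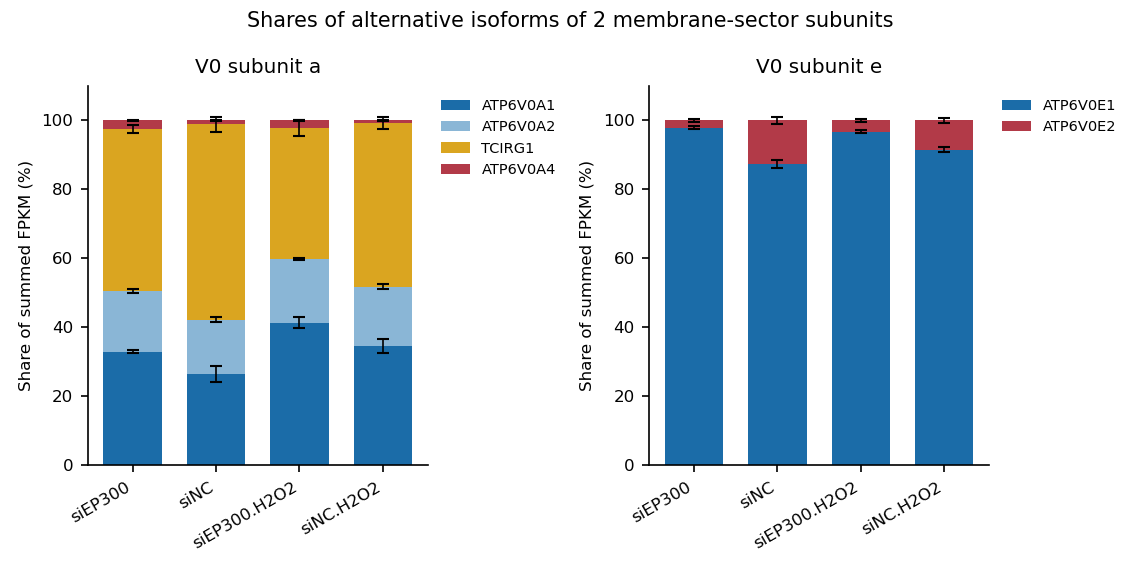
Mean share (percent, bars stacked to 100) of each isoform gene in the summed FPKM of V0 subunit a (left) and subunit e (right), with the SD of 3 libraries drawn at the top of each segment, for siEP300, siNC, siEP300.H2O2 and siNC.H2O2. The ATP6V0E2 segment is 2.04% in siEP300, against 12.6% in siNC.

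Of the accessory proteins, ATP6AP2, the prorenin receptor, rose in both arms by 0.27 ± 0.05 and 0.23 ± 0.05 (log2, SE), and ATP6AP1, which helps assemble V0, was at 0.08 ± 0.05 and 0.01 ± 0.05 and was not called, except with length and GC offsets (0.24 and 0.18). Both membrane glycoproteins rose. LAMP1 measured 407, 401 and 403 CPM in siEP300, against 271, 274 and 283 CPM in siNC (log2 fold change 0.55 ± 0.05 SE, adjusted p = 1.96e-07). With peroxide it measured 400.3, 431 and 424 CPM in siEP300.H2O2, against 324, 309 and 307 CPM in siNC.H2O2 (log2 fold change 0.42 ± 0.05 SE, adjusted p = 3.20e-06). The groups of LAMP1 stood apart in both arms. Any part of the E-boxes in its promoter in this rise was not tested. LAMP2, whose splice form LAMP2A serves chaperone-mediated autophagy, measured 488, 493 and 504 CPM in siEP300, against 362, 331 and 336 CPM in siNC (log2 fold change 0.53 ± 0.07 SE, adjusted p = 1.39e-05). In the peroxide arm the levels were 477, 445 and 452 CPM in siEP300.H2O2, against 333, 381 and 421 CPM in siNC.H2O2 (log2 fold change 0.28 ± 0.07 SE, adjusted p = 0.00370). The spread of siNC.H2O2 was wide, yet its highest library stayed below the lowest of siEP300.H2O2; length and GC offsets left 0.11 (adjusted p = 0.040) with peroxide.

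**Figure D4:**
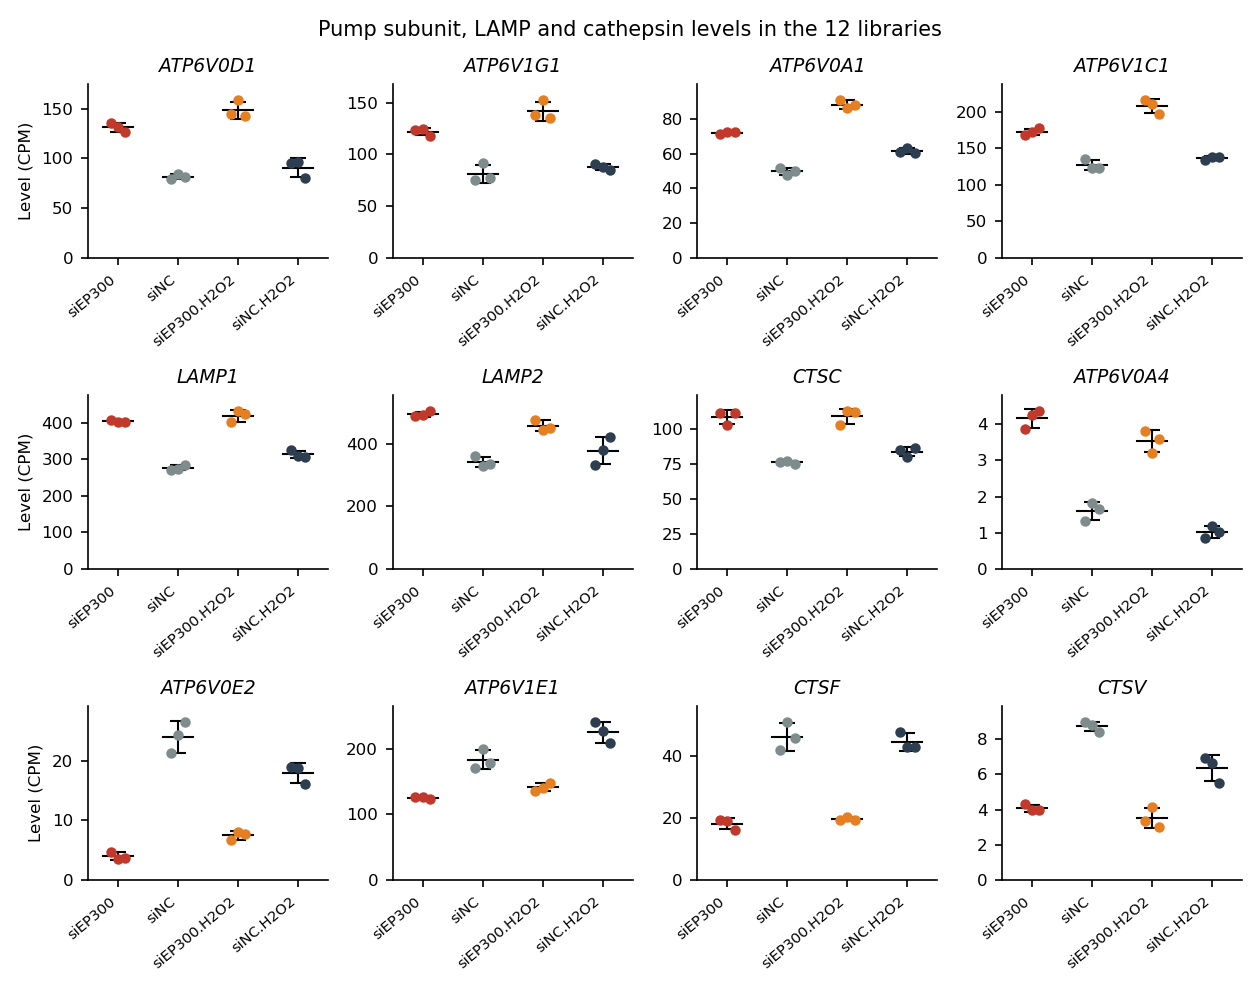
Level in CPM (linear axes from 0) of 12 members in each of the 12 libraries, with siEP300, siNC, siEP300.H2O2 and siNC.H2O2 from left to right; points are libraries, lines are means and bars are SD (n = 3). LAMP1 lies between 400.3 and 431 CPM in all libraries with EP300 siRNA and between 271 and 324 CPM in all controls.

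The most abundant cathepsins per length, CTSA, CTSB, CTSD and CTSZ, had log2 fold changes of -0.11, -0.03, -0.06 and -0.15 without peroxide, none called, and of -0.21, -0.03, -0.11 and -0.24 with it, where CTSA (adjusted p = 0.00966) and CTSZ (adjusted p = 0.0133) fell. CTSA is a carboxypeptidase, CTSD the main lysosomal aspartic protease, and CTSB and CTSZ are cysteine proteases. Length and GC offsets turned most of these round, to 0.23, 0.08, 0.40 and 0.15 without peroxide for CTSA, CTSB, CTSD and CTSZ, and to 0.08, 0.10, 0.27 and -0.01 with it, so no direction is given for them. The CTSZ call was also lost without siNC.H2O2 library 7 (adjusted p = 0.053) or siEP300.H2O2 library 10 (adjusted p = 0.070). CTSC, the dipeptidase that activates granule serine proteases, rose with 112, 103 and 112 CPM in siEP300, against 76.5, 77.5 and 75.4 CPM in siNC (log2 fold change 0.51 ± 0.06 SE, adjusted p = 2.03e-06). After peroxide its levels were 103, 113 and 112 CPM in siEP300.H2O2, against 85.3, 80.3 and 86.3 CPM in siNC.H2O2 (log2 fold change 0.38 ± 0.06 SE, adjusted p = 3.60e-05). No CTSC library with EP300 siRNA overlapped a control, and length and GC offsets left 0.32 without peroxide and 0.24 with it. CTSO, the other riser, passed with log2 fold changes of 0.45 ± 0.16 (adjusted p = 0.0201) and 0.42 ± 0.16 (adjusted p = 0.0351), and lost the call when single libraries of either arm were left out: siNC library 3 (0.080) or siEP300 library 5 (0.078) without peroxide, and siNC.H2O2 library 7 (0.11) or 8 (0.14) or siEP300.H2O2 library 10 (0.15) or 11 (0.089) with it. Length and GC offsets also ended the CTSO call with peroxide (adjusted p = 0.088), where its groups overlapped.

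Without CTSW, 6 of 10 cysteine cathepsins were called lower in each arm (medians -0.48 and -0.45, log2), beside the 31.4% and 30.6% of all tested genes called lower. With length and GC offsets 5 were called lower in each arm (-0.33 and -0.26), and those shares are from the fit without offsets. The 6 include CTSL without peroxide and CTSZ with it, whose calls the offsets ended. CTSF fell most among those above a few CPM. It measured 19.4, 18.9 and 16.1 CPM in siEP300, against 42.0, 51.1 and 46.0 CPM in siNC (log2 fold change -1.35 ± 0.09 SE, adjusted p = 8.18e-09). Under peroxide the gene measured 19.5, 20.3 and 19.3 CPM in siEP300.H2O2, against 48.0, 42.9 and 43.0 CPM in siNC.H2O2 (log2 fold change -1.18 ± 0.09 SE, adjusted p = 3.10e-08). The highest library with EP300 siRNA held 20.3 CPM and the lowest control 42.0 CPM. CTSV, a close relative of CTSL known from thymus and testis, measured 4.31, 3.97 and 3.98 CPM in siEP300, against 8.97, 8.80 and 8.43 CPM in siNC (log2 fold change -1.09 ± 0.13 SE, adjusted p = 2.89e-06). In peroxide-treated cells it measured 3.37, 4.17 and 3.03 CPM in siEP300.H2O2, against 6.95, 6.66 and 5.53 CPM in siNC.H2O2 (log2 fold change -0.86 ± 0.13 SE, adjusted p = 6.77e-05). Neither arm overlapped. CTSH, an aminopeptidase, fell by 0.71 and 0.66 on the log2 scale.

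CTSK and CTSS are best known from osteoclasts and antigen-presenting cells. CTSK measured 5.73, 4.59 and 6.21 CPM in siEP300, against 9.03, 10.4 and 9.65 CPM in siNC (log2 fold change -0.81 ± 0.15 SE, adjusted p = 2.48e-04), and 4.30, 4.92 and 5.24 CPM in siEP300.H2O2, against 10.0, 7.80 and 6.67 CPM in siNC.H2O2 (log2 fold change -0.76 ± 0.16 SE, adjusted p = 6.85e-04). CTSS measured 2.46, 3.40 and 2.94 CPM in siEP300, against 3.91, 5.83 and 4.61 CPM in siNC (log2 fold change -0.71 ± 0.17 SE, adjusted p = 0.00229), and 2.48, 2.57 and 2.98 CPM in siEP300.H2O2, against 5.87, 4.97 and 6.07 CPM in siNC.H2O2 (log2 fold change -1.08 ± 0.17 SE, adjusted p = 7.67e-05). The groups of both genes were apart in each arm. CTSW, a lymphocyte cathepsin, had summed counts of 1 in siEP300 and 21 in siNC, a level of 5.0% of control (95% exact interval 0.121% to 31.1%). With peroxide the sums were 5 in siEP300.H2O2 and 98 in siNC.H2O2, or 5.02% (1.60% to 12.1%); these intervals cover counting error only. Summed markers of the cell types that use these genes were low, and lower with EP300 siRNA. The 8 leukocyte markers in the table, of 11 listed, summed to 4.97 to 5.84 CPM in siEP300, against 7.23 to 9.17 CPM in siNC, and to 3.72 to 4.80 CPM in siEP300.H2O2, against 7.80 to 9.92 CPM in siNC.H2O2. CD14 made most of that sum, PTPRC reached at most 0.754 CPM in any library, and AIF1 was at 0 in siEP300 and siNC. The 5 osteoclast markers of 7 listed summed to 1.97 to 2.78 CPM in siEP300, against 5.01 to 6.25 CPM in siNC, and to 2.54 to 3.64 CPM in siEP300.H2O2, against 6.47 to 7.21 CPM in siNC.H2O2, with CALCR at 0 to 1 count. Of the leukocyte markers 1 passed the count filter, and it was called lower in each arm. Of the osteoclast markers 4 passed. In each arm 3 of these were called lower and 1 was not called (log2 fold change 0.42 without peroxide). ACP5, NFATC1 and OSCAR went down to 0.109, 0.109 and 0.166 CPM in their lowest libraries. Which groups carried the osteoclast markers past the filter was not examined, so their calls are a description. Of all tested genes, 31.4% were called lower without peroxide and 30.6% with it. Any part of these cell types in the falls of CTSK, CTSS and CTSW was not tested.

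CTSL, a major endopeptidase, was the member nearest to no change with peroxide. It measured 67.4, 66.4 and 62.3 CPM in siEP300, against 70.6, 80.9 and 82.7 CPM in siNC (log2 fold change -0.26 ± 0.08 SE, adjusted p = 0.00942). Peroxide-treated libraries had 78.6, 83.5 and 86.0 CPM in siEP300.H2O2, against 91.0, 76.0 and 79.4 CPM in siNC.H2O2 (log2 fold change 0.01 ± 0.08 SE, adjusted p = 0.925). The fall without peroxide was no longer called with length and GC offsets (adjusted p = 0.063) or without siEP300 library 6 (adjusted p = 0.051), and 6 annotated pseudogene entries carry the CTSL name. Fold changes in both EP300 siRNA comparisons were related to GC content across genes, with rank correlations of -0.35 and -0.31 over 13107 genes and of -0.30 and -0.28 over the 38 members. Genes are not independent replicates, and the part of this relation in single members was not tested beyond the offsets given.

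Peroxide by itself moved fewer members. With control siRNA, 10 members rose and 4 fell, 14 of 38, where 35.3% of all tested genes were called (17.8% higher, 17.4% lower). With EP300 siRNA, 11 rose and 3 fell, where 31.1% were called (15.9% higher, 15.1% lower). The median log2 fold change was 0.12 with control siRNA and 0.13 with EP300 siRNA, with -0.00808 and -0.000381 over all tested genes. V1 subunits gave 4 rises and 1 fall of 12 with control siRNA and 6 and 2 with EP300 siRNA. These comparisons share their libraries with those of the siRNA. Single libraries moved the counts: with EP300 siRNA 6 to 7 members rose without siEP300 library 4, 5 or 6 or siEP300.H2O2 library 11, 1 fell without siEP300 library 4 or siEP300.H2O2 library 10, and with control siRNA 2 fell without siNC library 2 or 3 or siNC.H2O2 library 9. The count of rises with control siRNA was also 5 by limma on FPKM and 16 with length and GC offsets.

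The pump's abundant B subunit was called higher with peroxide under either siRNA. ATP6V1B2 measured 288, 282 and 265 CPM in siEP300.H2O2, against 242, 247 and 251 CPM in siEP300 (log2 fold change 0.17 ± 0.05 SE, adjusted p = 0.0128), and 281, 277 and 269.6 CPM in siNC.H2O2, against 219.8, 211 and 216 CPM in siNC (log2 fold change 0.36 ± 0.05 SE, adjusted p = 5.17e-05). Peroxide libraries were above the others with either siRNA; with EP300 siRNA the call ended without siEP300 library 4 (adjusted p = 0.063) or siEP300.H2O2 library 10 (adjusted p = 0.051). ATP6V0A1, with the levels given above, rose by 0.29 ± 0.05 with EP300 siRNA and 0.30 ± 0.05 with control siRNA (log2, SE). ATP6V1E1 rose with control siRNA (log2 fold change 0.30 ± 0.07 SE, adjusted p = 0.00245), and its 0.18 ± 0.07 with EP300 siRNA was not called (adjusted p = 0.0535). CTSB rose with both siRNAs, by 0.26 ± 0.06 with EP300 siRNA and 0.25 ± 0.06 with control siRNA. CTSW had summed counts of 98 in siNC.H2O2, 51 of them in library 7, and of 21 in siNC; since siNC.H2O2 alone carried it past the filter, this difference is a description.

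Rotor subunit ATP6V1F and CTSL rose with EP300 siRNA present. ATP6V1F measured 94.4, 96.1 and 94.8 CPM in siEP300.H2O2, against 76.2, 74.7 and 74.1 CPM in siEP300 (log2 fold change 0.34 ± 0.07 SE, adjusted p = 0.00239), and 80.3, 68.8 and 62.9 CPM in siNC.H2O2, against 68.0, 73.3 and 71.6 CPM in siNC (log2 fold change -0.01 ± 0.07 SE, adjusted p = 0.961). The groups were apart with EP300 siRNA and overlapped with control siRNA. Its interaction was 0.35 ± 0.10 (log2, SE, adjusted p = 0.0849), short of the threshold, and it was called by DESeq2 (adjusted p = 0.0339) and without siNC library 1 (adjusted p = 0.0493) or siNC.H2O2 library 7 (adjusted p = 0.00497). CTSL rose by 0.34 ± 0.08 with EP300 siRNA (adjusted p = 0.00375) and was at 0.07 ± 0.08 with control siRNA, with an interaction of 0.27 ± 0.11 (adjusted p = 0.219). That difference was called for CTSL with length and GC offsets (adjusted p = 0.0464), so whether CTSL responds differently under the 2 siRNAs turns on the processing. ATP6V1F was also called with those offsets (adjusted p = 0.0355) and by limma on FPKM (adjusted p = 0.0359).

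Falls with peroxide were mostly in scarce isoforms. ATP6V1B1 fell with both siRNAs (-1.14 ± 0.32 with EP300 siRNA and -0.71 ± 0.24 with control siRNA, log2 with SE), but its call with control siRNA was lost when any 1 of the 6 libraries compared was left out and in DESeq2 (adjusted p = 0.135), and with EP300 siRNA without siEP300 library 6 (adjusted p = 0.110). ATP6V0A4 and CTSV fell with control siRNA, by 0.64 ± 0.21 and 0.45 ± 0.12 on the log2 scale, and ATP6V0A4 was not called without siNC library 2 or 3 or siNC.H2O2 library 7 or 9 (adjusted p between 0.054 and 0.12), nor in DESeq2 (adjusted p = 0.072). With EP300 siRNA, ATP6V1E2 measured 1.16, 1.26 and 1.60 CPM in siEP300.H2O2, against 2.62, 1.76 and 1.85 CPM in siEP300 (log2 fold change -0.63 ± 0.21 SE, adjusted p = 0.0300), a call lost without siEP300 library 4 (adjusted p = 0.19) or siEP300.H2O2 library 10 (0.096) or 11 (0.093), and in DESeq2 (0.075). With control siRNA it measured 1.89, 1.89 and 1.57 CPM in siNC.H2O2, against 2.38, 2.24 and 2.12 CPM in siNC, and was not called. CTSA, the most abundant member per length, measured 413, 464 and 429 CPM in siEP300.H2O2, against 516, 508 and 489 CPM in siEP300 (log2 fold change -0.21 ± 0.06 SE, adjusted p = 0.0201). It measured 522, 519.9 and 472 CPM in siNC.H2O2, against 501, 572 and 557 CPM in siNC (log2 fold change -0.11 ± 0.06 SE, adjusted p = 0.218), where the ranges overlapped. The CTSA call with EP300 siRNA was lost without siEP300 library 4 (adjusted p = 0.071) or 5 (0.059) or siEP300.H2O2 library 10 (0.069) or 12 (0.064). TCIRG1 fell with both siRNAs, by 0.34 ± 0.08 with EP300 siRNA and 0.33 ± 0.08 with control siRNA (log2, SE).

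**Figure D5:**
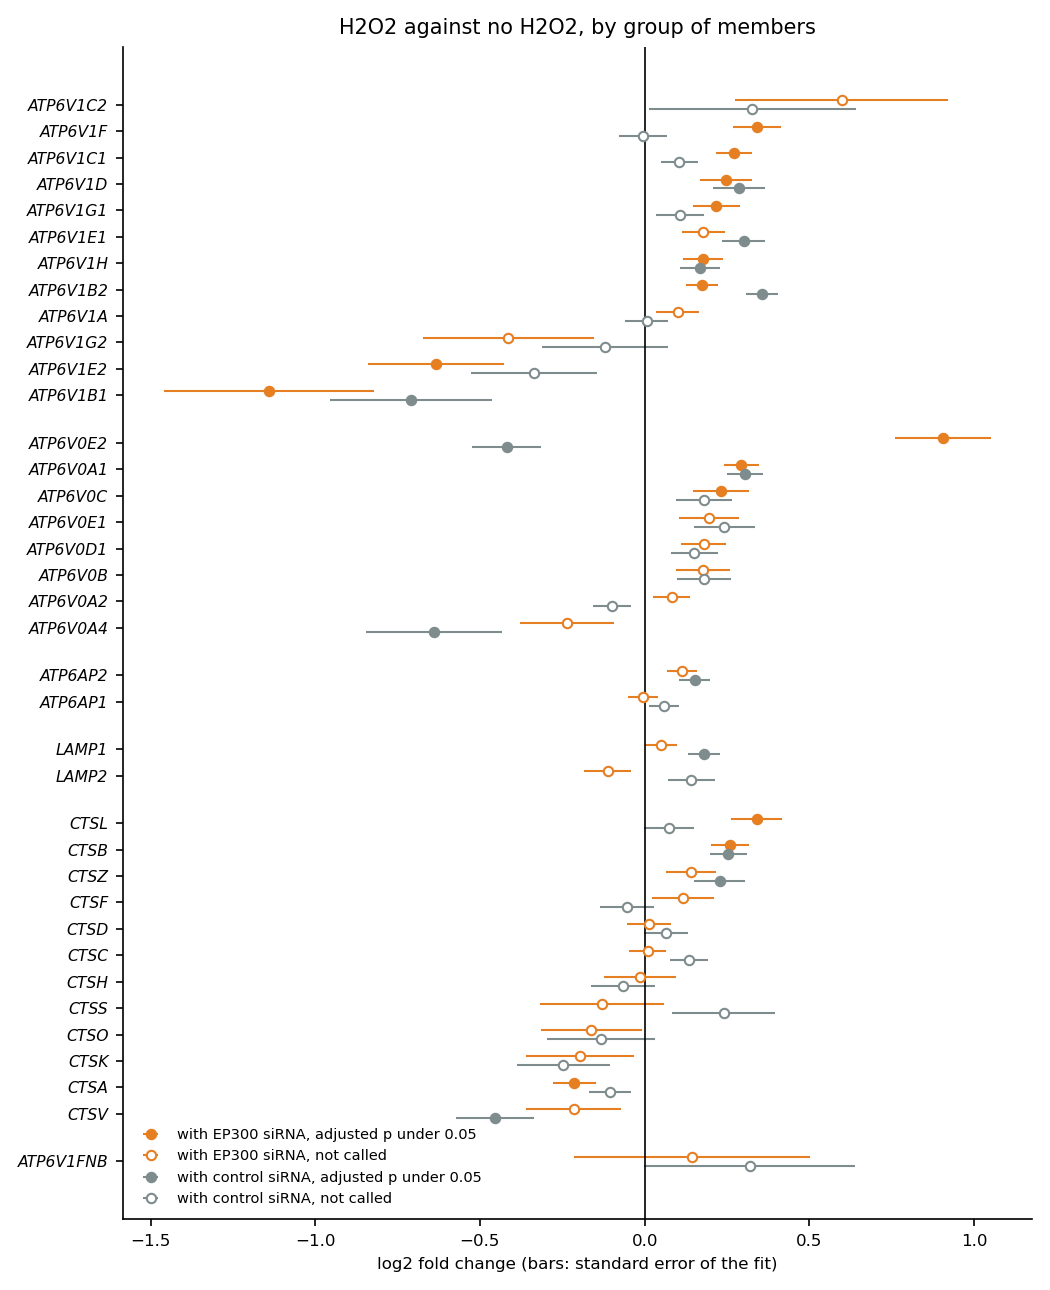
Log2 fold change (points) with standard error (bars) of H2O2 over no H2O2 for 37 tested members, with EP300 siRNA (orange) and with control siRNA (grey), in the same groups of members; filled points passed the test and CTSW is left out because its counts are near 0. ATP6V0E2 is at 0.90 with EP300 siRNA and -0.42 with control siRNA.

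Other lysosomal genes put the members in context. Of 26 listed membrane proteins and transporters, 15 rose and 7 fell with EP300 siRNA without peroxide (median log2 fold change 0.22), and 11 rose and 8 fell with it (0.08). The share of all tested genes, which each list here is to be read against, was 30.1% higher and 31.4% lower without peroxide and 28.4% higher and 30.6% lower with it. OSTM1, the partner of the lysosomal chloride exchanger, rose by 1.02 ± 0.06 and 1.13 ± 0.06 (log2, SE), TMEM192 by 0.66 and 0.78, and the transporter ABCA2 fell by 0.76 and 0.64. Of 34 tested glycosidases, sulfatases and lipid hydrolases, 12 rose and 10 fell without peroxide (median 0.00028) and 9 rose and 14 fell with it (-0.06). The fucosidase FUCA1 fell by 1.94 and 1.12 and the sialidase NEU1, which needs CTSA for its activity, fell by 0.95 and 1.07. Of 7 tested proteases without a cathepsin letter, 3 rose and 3 fell without peroxide and 3 rose and 4 fell with it (medians 0.03 and -0.17). In that list PPT1, a thioesterase, rose by 0.53 and 0.59, GGH, a folate hydrolase, rose by 0.45 and 0.63, and DPP7 fell by 0.83 and 0.51.

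Assembly factors and other pump parts gave 6 rises and 5 falls of 14 without peroxide and 6 and 4 with it (medians -0.08 and 0.05). CCDC115, which helps build V0, fell by 0.62 ± 0.08 and 0.74 ± 0.08 (log2, SE), and OXR1, of the TLDc family that acts on the pump, rose by 0.66 ± 0.07 and 0.71 ± 0.08. TBC1D24, of the same family, fell by 0.57 without peroxide and was at 0.05 with it, and its interaction of 0.62 ± 0.09 passed (adjusted p = 0.00209). Of 16 genes for mannose 6-phosphate tagging and delivery, 5 rose and 4 fell without peroxide and 4 rose and 4 fell with it (medians 0.03 and 0.03). GNPTAB, which makes the tag that carries hydrolases to lysosomes, fell by 1.36 and 1.13, IGF2R, a receptor for that tag, rose by 1.19 and 0.95, and the sorting receptor SORL1 fell by 1.24 and 1.73.

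Of 19 tested lysosome biogenesis factors and mTORC1 scaffold genes, 9 rose and 3 fell without peroxide and 8 rose and 2 fell with it (medians 0.11 and 0.03). RRAGC, a Rag GTPase that recruits mTORC1, rose by 0.50 and 0.33, and FNIP2, which acts on Rag GTPases, rose by 0.61 and 0.81. TFE3 rose by 0.24 ± 0.06 without peroxide and was at 0.03 ± 0.06 with it (0.55 and 0.29 with length and GC offsets, both called). TFEB was at -0.03 ± 0.11 and -0.10 ± 0.11, and MITF at -0.15 ± 0.10 and -0.01 ± 0.10 (log2, SE), none of them called. The offsets gave calls without peroxide for TFEB (0.24, adjusted p = 0.034) and MITF (-0.27, adjusted p = 0.0022). With peroxide they gave 0.12 and -0.10, not called. Of 12 listed cysteine protease inhibitors 3 were tested. CSTA rose without peroxide by 1.90 ± 0.52 and was not called with it (0.25 ± 0.43). Its standard errors were wide, its levels are not given here, and its interaction was not called (-1.65 ± 0.69, adjusted p = 0.235). CST3 (-0.22 and -0.14) and CSTB (0.02 and 0.06) were not called.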

How the data were processed

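RNA of 12 AC16 libraries in 4 groups of 3 was analysed, grouped by their titles. The authors deposited estimated counts, unscaled, and FPKM (fragments scaled to length and total) per gene symbol. HISAT and Bowtie2 with GRCh38.p13 were used per the submitters' processing notes; the sources used here do not state their versions, the annotation, the counter or the strand setting. Between 12.0% and 13.8% of counts were not whole numbers and were rounded. Levels between groups are CPM on TMM-scaled totals (factors 0.969 to 1.05); FPKM serves for levels between genes and isoform shares. Groups were compared with edgeR 4.0.16 in R 4.3.3, by quasi-likelihood tests, two-sided, on all 12 libraries with 1 mean per group after filterByExpr, with Benjamini-Hochberg adjustment over 13171 genes and a threshold of 0.05. The biological coefficient of variation was 6.72%. Standard errors of log2 fold changes come from that fit. Library pairs within a group differed beyond sampling noise (chi-square per degree of freedom 1.81 to 18.9), so none was treated as a duplicate deposit; this does not show separate cultures.

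The members, gene lists and marker lists were chosen with earlier results of these data known. Values in all libraries are given for the 6 largest rises and falls among called members in each EP300 siRNA comparison, the 4 largest in each H2O2 comparison, called interactions, LAMP1, LAMP2 and the member nearest to no change; those of CTSC were added after they were seen. From each gene list up to 2 genes with the smallest p in each EP300 siRNA comparison are named; 1 gene that this rule names is not reported here. Alternatives were DESeq2 1.42.0 and its size factors, no count filter (minimum 1), only the groups compared, limma 3.58.1 on FPKM with pseudocounts of 1 and 0.1, length and GC offsets (spline with 4 degrees of freedom), and each library left out. A covariate for the axis of differences within groups, and leaving out siNC library 1 with siNC.H2O2 library 7, were chosen after seeing the data. Promoters are from RefSeq, and gene positions, overlaps, lengths and GC content from GENCODE.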

Additional observations from a re-analysis of the deposited data

Results flagged for a closer look

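ATP6V0E2 is the member whose EP300 siRNA effect differed between cells with and without H2O2 by a test of that difference. The interaction was 1.32 (log2, adjusted p = 0.00125, edgeR), with fold changes of -1.26 ± 0.12 with H2O2 and -2.58 ± 0.13 without it (SE). It was called in every alternative fitted, with values between 1.15 and 1.46. With 3 libraries a group, no test for a single library far from the others was run.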

How the results depend on the processing

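No paired analysis was possible because the replicate numbers run from 1 to 12 and no 2 groups share one. Over all alternatives, 21 of 25 called members kept their call without H2O2, 24 of 27 with it, 7 of 14 for H2O2 with control siRNA, 6 of 14 for H2O2 with EP300 siRNA and 1 of 1 for the interaction; the cause of the other changes was not tested. Rises with H2O2 and control siRNA numbered 10, but 6 with only the 2 groups fitted, 5 by limma on FPKM with either pseudocount, 16 with length and GC offsets and 17 with the covariate for differences within groups; falls numbered 4, but 2 in DESeq2. With EP300 siRNA, 11 rises became 18 with that covariate, and the counts over all genes 3191 higher and 3102 lower. Interactions among members, 1 higher and 0 lower, became 2 and 0 in DESeq2, 2 and 1 (pseudocount 1) or 2 and 0 (pseudocount 0.1) on FPKM, 3 and 1 with offsets, 4 and 2 with the covariate and 3 and 1 without siNC library 1 and siNC.H2O2 library 7. Over all genes, 148 higher and 291 lower became 325 and 265 higher on FPKM (pseudocounts 1 and 0.1), 416 and 639 with offsets, 806 and 1190 with the covariate, and 767 and 1229 without those libraries. Leaving out 1 library at a time gave 7 to 13 rises and 2 to 4 falls for H2O2 with control siRNA, 6 to 14 and 1 to 3 with EP300 siRNA, 1 to 2 and 0 to 1 member interactions, and 59 to 258 and 137 to 459 interactions over all genes. Calls gained by members included LAMP2 (interaction -0.34, adjusted p = 0.0271, without siNC.H2O2 library 7).

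Main values that changed sign were near 0 or moved with the offsets, and ATP6V1C2 moved widely when single libraries were left out. With length and GC offsets, log2 fold changes without H2O2 became -0.0914 for ATP6V0A2, 0.23 for CTSA, 0.0845 for CTSB, 0.40 for CTSD, 0.15 for CTSZ, 0.45 for TCIRG1 and 0.24 for TFEB, and with H2O2 -0.10 for ATP6V1B2, 0.0753 for CTSA, 0.10 for CTSB, 0.27 for CTSD, 0.36 for TCIRG1 and 0.12 for TFEB. With H2O2, limma on FPKM gave -0.0012 for ATP6V1B2 with either pseudocount, and -0.0046 and -0.0708 for ATP6V1C2 with pseudocounts of 1 and 0.1. MITF with H2O2 was 0.00024 with DESeq2's size factors, 0.00012 in DESeq2 and 0.00296 without the count filter. Leaving out single libraries gave -0.00211 to 0.032 for ATP6AP1, -0.0103 to 0.0482 for ATP6V1B2, -0.43 to 0.35 for ATP6V1C2, -0.0646 to 0.0166 for CTSB, -0.0392 to 0.0903 for CTSL and -0.0877 to 0.0751 for MITF with H2O2, and -0.10 to 0.0347 for TFEB without it. Estimated counts of 16081437 to 19033679 a library leave isoforms such as CTSW, ATP6V1B1 and ATP6V1G2 on few counts, where only large differences are detectable.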
